A study of Mus musculus with 8 samples.

Results

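Chaf1a siRNA was compared with negative control siRNA in mouse embryonic stem cells, with gene and repeat RNA measured by poly(A)-selected, stranded, paired-end sequencing. The cells grew on gelatin in medium with serum, leukemia inhibitory factor and the 2i inhibitors CHIR99021 and PD0325901, and cells of every group carried a MERVL::EGFP reporter transgene. The negative control group received 20 pmol of negative control siRNA. In the Chaf1a siRNA group, Chaf1a siRNA and negative control siRNA were given together at 10 pmol each, so that the total was the same. A further pair of groups received 10 pmol of Chaf1a siRNA with a diced siRNA pool against mDux, si308 or si309, at 10 pmol; the label of 1 si309 library gives no dose. Transfection was done on consecutive days. Each of the 4 groups had 2 libraries described as biological replicates. The p-values rest on the spread between libraries, estimated largely from what genes, or repeat names, share. Of 28431 genes counted, 17977 passed a filter on low counts and were tested, and of 1499 repeat names 1253 were tested. The 4 libraries of the comparison held 26042851 to 35845976 gene counts and 1746498 to 2869694 repeat counts.

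CHAF1A is the large subunit of CAF-1, the chaperone that places newly made histones H3 and H4 behind the replication fork, and CHAF1B and RBBP4 are its partners. In embryonic stem cells CAF-1 is known to hold back a rare state that resembles the two-cell embryo, in which the homeobox factor DUX, the Zscan4 genes and the endogenous retrovirus MERVL are transcribed. DUX is taken as free to rise in this comparison, because the mDux pools were absent from both groups.

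Chaf1a, the target (chr17:56040439-56072289, GRCm38, plus strand), was at 139 and 139.9 CPM in the negative control libraries and 28.6 and 30.6 CPM with Chaf1a siRNA. The groups did not overlap, and the fall was 4.71-fold (log2 change -2.24, SE 0.07, adjusted p = 3.4e-17; edgeR's quasi-likelihood test, adjusted over all genes tested, as for every adjusted p of a gene here; those of repeats are adjusted over the repeat names tested). Chaf1b was at 139 and 153 CPM in the negative control libraries and 118 and 115 CPM with Chaf1a siRNA, a smaller fall (log2 change -0.33, SE 0.05, adjusted p = 1.1e-05). Rbbp4 was at 969 and 949 CPM in the negative control libraries and 933 and 919.9 CPM with Chaf1a siRNA and was not called (log2 change -0.05, SE 0.04, adjusted p = 0.28), and its sign turned when libraries were scaled by their totals alone. Of 15 CAF-1 subunits and binding partners, 5 rose and 8 fell, where 36.7% of all tested genes rose and 30.8% fell. The raised ones included Asf1a, which hands H3 and H4 to CAF-1 (41.8 and 35.8 against 56.9 and 57.1 CPM, the control libraries first here and below), and Ubn1 of the HIRA chaperone complex (51.3 and 50.7 against 84.7 and 91.1 CPM); the lowered ones included the heterochromatin protein gene Cbx1 (248 and 247 against 180.5 and 172 CPM). H3f3b, which encodes the replacement histone H3.3 used by HIRA, had the largest gain in CPM of any tested gene, with 414 and 397 CPM in the negative control libraries and 1407 and 1391 CPM with Chaf1a siRNA. It rose 3.45-fold (log2 change 1.79, SE 0.04, adjusted p = 2e-19), and it stood at 1352 CPM with si308 and 1469 CPM with si309.

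mDux (4933403O03Rik, chr10) had 0 and 2 counts in the control libraries and 256 and 193 with Chaf1a siRNA (log2 change 7.58, SE 0.43, adjusted p = 1.7e-12). With so few control counts the size of the rise is loosely known, with a ratio of 213 and a counting interval of 58.6 to 1763. The gene lies in an array of related copies, which may share reads. Promoters of strongly raised genes were read on both strands for 1 reading of the 11-base sequence that mouse DUX binds: the letters TGATT, then NN, ATN and A, where N is any base. The windows run from 250 bases before to 50 bases after the start of each gene, from RefSeq (GRCm38.p6). Only 62.5% of the 922 genes raised at least 16-fold had a window, so a comparison of shares between gene classes is void. Of the 576 with a window 13 held the motif. It was present in 0.971% of all 32851 windows and in 0.553% of those of tested genes, and no comparison is drawn from these shares. Members of each cluster share much of their sequence and are not independent. The 4 windows below come from the Zscan4 cluster and from a cluster of predicted genes on chromosome 12, and they are shown because both clusters form runs of raised genes described further on. Capitals mark the motif match, which lies on the strand opposite to the gene in Zscan4c and Zscan4d and on the strand of the gene in Gm4027 and Gm21319.

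Zscan4c, chr7:11005495-11005794, plus strand: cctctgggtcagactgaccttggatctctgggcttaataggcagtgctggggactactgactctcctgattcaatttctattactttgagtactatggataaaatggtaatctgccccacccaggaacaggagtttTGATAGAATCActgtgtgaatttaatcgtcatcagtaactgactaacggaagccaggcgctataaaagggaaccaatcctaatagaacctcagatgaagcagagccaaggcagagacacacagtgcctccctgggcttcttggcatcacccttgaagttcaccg
Zscan4d, chr7:11166099-11166398, minus strand: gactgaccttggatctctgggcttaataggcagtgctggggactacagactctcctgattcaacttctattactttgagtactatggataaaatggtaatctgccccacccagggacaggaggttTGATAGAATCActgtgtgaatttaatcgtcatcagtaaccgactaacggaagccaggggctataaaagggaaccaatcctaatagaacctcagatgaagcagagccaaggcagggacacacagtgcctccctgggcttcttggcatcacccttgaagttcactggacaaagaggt
Gm4027, chr12:87618659-87618958, plus strand: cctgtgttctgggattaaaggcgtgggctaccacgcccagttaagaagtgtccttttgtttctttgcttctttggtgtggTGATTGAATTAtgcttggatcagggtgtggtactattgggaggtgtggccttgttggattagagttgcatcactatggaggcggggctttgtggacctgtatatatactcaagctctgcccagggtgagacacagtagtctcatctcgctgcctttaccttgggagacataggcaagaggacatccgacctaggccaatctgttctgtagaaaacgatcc
Gm21319, chr12:87775706-87776005, minus strand: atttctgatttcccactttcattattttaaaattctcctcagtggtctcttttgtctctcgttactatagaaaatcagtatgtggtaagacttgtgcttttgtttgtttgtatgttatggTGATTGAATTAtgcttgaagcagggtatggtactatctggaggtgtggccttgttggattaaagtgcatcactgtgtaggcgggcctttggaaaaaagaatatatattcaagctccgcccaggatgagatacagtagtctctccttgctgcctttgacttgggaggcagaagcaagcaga

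Zscan4c and Zscan4d carry the same 11 letters, TGATAGAATCA, and Gm4027 and Gm21319 carry TGATTGAATTA. Zscan4d was at 0.353 and 0.697 CPM in the negative control libraries and 255 and 272 CPM with Chaf1a siRNA, and Zscan4c at 0.196 and 0.242 CPM in the negative control libraries and 159 and 167 CPM with Chaf1a siRNA. Gm4027 stood at 0.0393 and 0.0909 against 24.9 and 26.7 CPM, and Gm21319 at 0 and 0 against 14.9 and 14.8 CPM. No control library reached 1 CPM for any of these 4 genes. A match describes these letters and does not show that DUX bound there.

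Across all tested genes 6597 rose and 5545 fell, and of these 3867 rose (21.5%) and 667 fell (3.71%) at least 2-fold. The median log2 change was 0.05. Rises were more frequent among genes with little RNA and falls among genes with much. Among genes with a mean under 0.3 CPM over the 8 libraries 52.2% rose and 3.77% fell, and among those over 100 CPM 19.8% rose and 60.1% fell. A gene with little RNA in the control entered the test only if it was higher in another group, so the share for low genes is partly set by the filter. The same limit holds for the counts and medians of families of low genes below, which cover tested members only. The split depended on scaling: with library totals and no normalization factors the median change was 0.22, and 8120 genes rose and 3791 fell. All changes below are on the scale of the TMM factors, on which the all-gene median of 0.05 is the point of reference. Counts of lists and families below are to be read beside the 36.7% of all tested genes that rose and the 30.8% that fell.

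**Figure D1:**
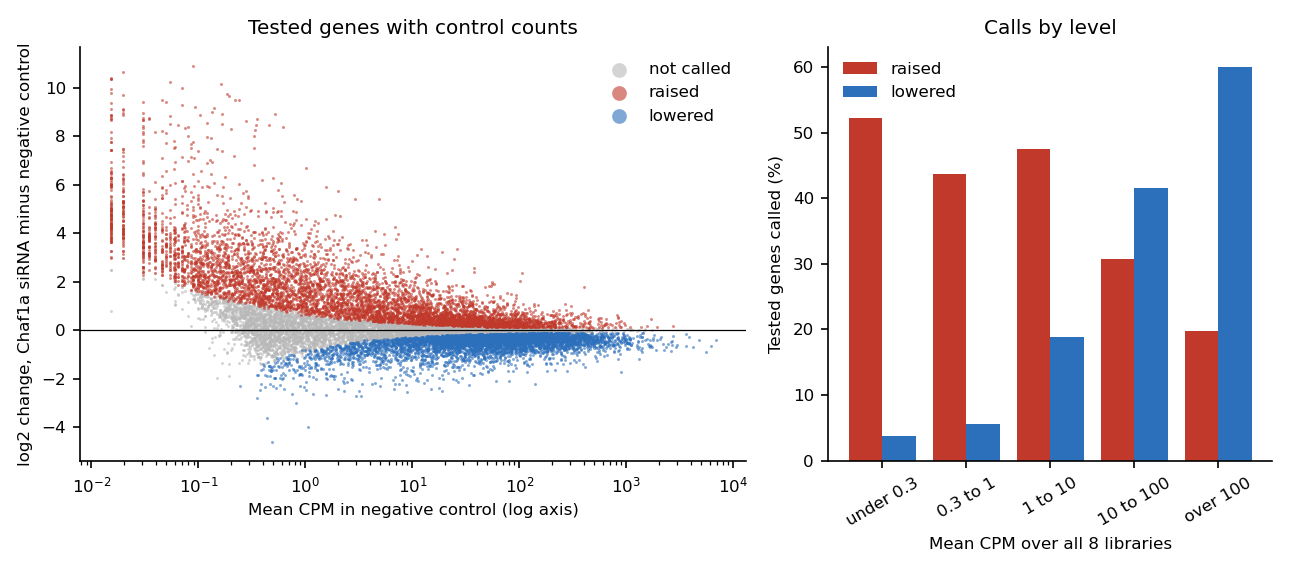
Left, log2 change (Chaf1a siRNA minus negative control) of each tested gene with control counts against its mean CPM in the 2 negative control libraries on a log axis, coloured by call. Right, the percentage of tested genes raised and lowered by mean CPM over all 8 libraries; raised genes make up 52.2% of the lowest class and 19.8% of the highest, and lowered genes 3.77% and 60.1%.

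The 4 families of the two-cell-like state that cover Zscan4, Usp17l, Tdpoz and Tcstv genes took 0.000218% and 0.000173% of gene counts in the control libraries and 0.145% and 0.151% with Chaf1a siRNA. With si308 they took 0.000204% and 0.000262%, and with si309 0.00401% and 0.00388%. In bulk RNA, more cells in this state and more RNA per such cell cannot be told apart. Among genes outside these families, AU015228 was at 0 and 0.0303 against 25.8 and 29.9 CPM, with a ratio of 1614 with a counting interval of 289 to 63780. The netrin receptor gene Dcc stood at 0.0393 and 0 against 18.2 and 16.9 CPM and Tmem92 at 0 and 0.0909 against 38.8 and 39.8 CPM, and both were under 1 CPM with either pool. Phf11a had no control counts and reached 7.45 and 8.78 CPM (at least 77.8-fold higher by a floor of 3 counts per library), whereas its relative Phf11d fell (163 and 154 against 115 and 109 CPM). Fgf1, a growth factor, went from 0.118 and 0.212 to 27.9 and 31.2 CPM, while Fgf4 fell. Of 16 Prame-like genes 10 passed the filter and 9 rose, with Pramel6 at 2.67 and 2.36 against 30.5 and 25.97 CPM and Pramef6 at least 100.2-fold higher from no control counts. Obox1, Obox2 and Obox3 rose from no control counts, to between 0.897 and 3.67 CPM, and Obox6 fell (3.69 and 3.45 against 2.23 and 1.64 CPM). The rises of Obox1 and Obox3 were not called by DESeq2, and the fall of Obox6 was not called without Chaf1a siRNA replicate 1.

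Raised genes formed 44 runs of 4 or more consecutive tested genes, each raised at least 4-fold, which held 260 genes on 18 chromosomes. Of all tested genes 13.3% were raised that far. Genes that were not tested were skipped, so members of a run need not be direct neighbours. The filter also partly sets which low genes a run can hold. In the run at chr7:14548714-15209025, 12 of 14 genes had no control counts. The longest run, with 16 genes including Oog1, Gm4027 and Gm21319 at chr12:87514316-88324026, summed to 2.04 and 1.54 CPM in the negative control libraries and 725 and 724 CPM with Chaf1a siRNA. The Zscan4 run of 5 genes at chr7:10900740-11402318 summed to 1.33 and 1.21 CPM in the negative control libraries and 701 and 736 CPM with Chaf1a siRNA. A run of 9 genes with D13Ertd608e and AF067061 at chr13:119827961-120308779 went from 1.26 and 0.848 CPM to 396 and 389 CPM. These runs hold closely related gene copies, and how the submitters divided reads among copies is not given in the sources used here. Other runs also hold some related genes. At chr1:85083069-85645037 a run of 9 held the interferon-inducible nuclear body genes Sp110 and Sp140 and summed to 0.393 and 1.09 CPM in the negative control libraries and 258 and 258 CPM with Chaf1a siRNA. Tmem176b, Tmem176a, Aoc1, 1600015I10Rik and Gpnmb stood together at chr6:48833818-49070929, with 5.02 and 5.76 CPM in the negative control libraries and 225 and 240.2 CPM with Chaf1a siRNA. H19, Igf2, Igf2os and Th, neighbours in an imprinted region at chr7:142575529-142931128, summed to 8.56 and 8.70 CPM in the negative control libraries and 64.8 and 65.99 CPM with Chaf1a siRNA. A run of 11 genes, mostly keratins and with Krt8 at its end (chr15:101431038-102004482), summed to 2.83 and 3.33 CPM in the negative control libraries and 25.7 and 26.5 CPM with Chaf1a siRNA, and the kallikrein genes Klk8 to Klk12 with Klk15 (chr7:43768897-43939639) to 2.94 and 2.82 CPM in the negative control libraries and 20.9 and 22.2 CPM with Chaf1a siRNA.

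**Figure D2:**
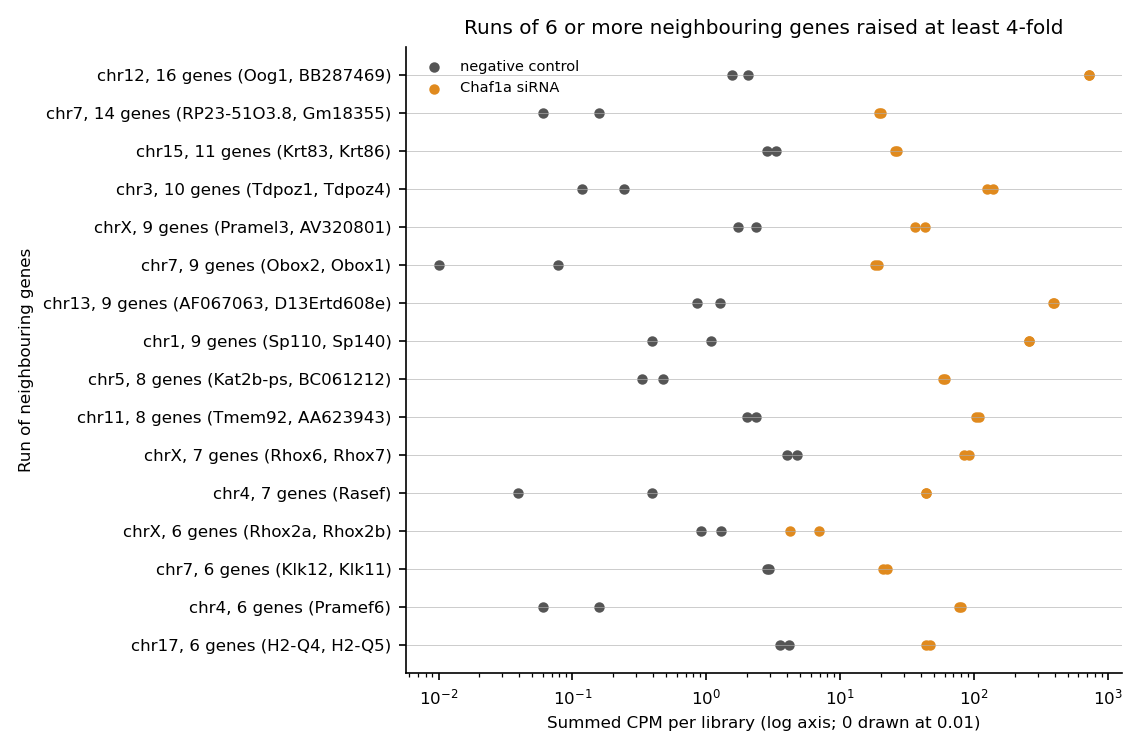
Summed CPM of each run of 6 or more consecutive tested genes raised at least 4-fold, on a log axis. Each of the 2 negative control libraries (grey) and the 2 Chaf1a siRNA libraries (orange) has a point. The 16-gene run on chromosome 12 went from 2.04 and 1.55 CPM to 725 CPM, and the Chaf1a siRNA libraries lie to the right of the control libraries in every run, as the rule for a run requires.

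Repeat RNA was 6.25 and 6.45 counts per 100 gene counts in the control libraries and 8.46 and 8.75 with Chaf1a siRNA. Of 1253 tested repeat names 488 (38.9%) rose and 39 (3.11%) fell, and 116 rose (9.26%) and 7 fell (0.559%) at least 2-fold. With scaling from the repeat table itself, which sets the median repeat to no change, 286 rose and 234 fell. MERVL-int, the internal part of the retrovirus MERVL, was at 59.4 and 59.6 CPM in the negative control libraries and 2600 and 2754 CPM with Chaf1a siRNA, and its promoter MT2_Mm at 33.3 and 34.2 CPM in the negative control libraries and 634 and 660.5 CPM with Chaf1a siRNA. These 2 names were 45-fold and 19.2-fold higher. Among names that averaged 10 CPM or more in the group where they were higher, the next largest changes were those of ORR1A3-int, an element of the MaLR group (41.1 and 39.4 against 244 and 253 CPM), RLTR6B_Mm of the ERV1 group (9.97 and 9.97 against 60 and 63.2 CPM), MER89 (4.83 and 4.09 against 25.9 and 26.7 CPM) and RLTR10B2 (3.10 and 2.36 against 15.7 and 17.2 CPM). By family, 57 of 94 MaLR names, 55 of 98 ERVL, 143 of 273 ERVK, 54 of 109 ERV1 and 66 of 129 L1 names rose, with family medians from 0.27 to 0.48, beside a median of 0.23 over all repeat names.

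Short interspersed elements behaved differently by name. Of 15 tested B1 names 1 rose, and their sum was 12520 and 12770 CPM in the control and 12470 and 12670 CPM with Chaf1a siRNA. B2_Mm1a was at 546 and 609 CPM in the negative control libraries and 2154 and 2322 CPM with Chaf1a siRNA (log2 change 1.96, SE 0.07, adjusted p = 1e-146), and it stayed at 1685 CPM with si308 and 1569 CPM with si309. ORR1A0-int was at 93.02 and 89.8 against 460.5 and 477 CPM and likewise stood at 253 CPM with si308 and 239.6 CPM with si309, between the 2 groups. RLTR6B_Mm, by contrast, was at 9.98 CPM with si308 and 10.4 CPM with si309, beside 9.97 CPM in both control libraries. The L1 element Lx3_Mus was at 45.4 and 50.9 against 184 and 189.5 CPM, and at 65.8 CPM with si308 and 63.8 CPM with si309. Against the negative control 10.9% of repeat names rose and 3.75% fell with si308, and 6.7% rose and 6.7% fell with si309. Against the Chaf1a siRNA group 312 repeat names (24.9%) were lower and 0.479% higher with si308, and 502 (40.1%) were lower and 0.16% higher with si309. These comparisons share libraries with that of Chaf1a siRNA and negative control. Their counts are on the scale of the gene table. On that scale the median repeat changed against the negative control by 0.23 in the Chaf1a siRNA group, 0.07 with si308 and -0.03 with si309. The pool comparisons were not repeated with scaling from the repeat table.

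Of the 39 names that fell 14 were of the ERVK group and 8 were simple repeats. These were 5.13% of 273 tested ERVK names and 3.54% of 226 simple repeats, beside 3.11% of all tested names. IAP1-MM_I-int, part of the intracisternal A particle family, was at 27.1 and 32.1 CPM in the negative control libraries and 11.9 and 12.3 CPM with Chaf1a siRNA (log2 change -1.29, SE 0.10, adjusted p = 2.5e-35). IAPEy-int was at 29 and 30.4 against 18.7 and 20.8 CPM and MMETn-int, an early transposon, at 1559 and 1429 against 1045 and 1029 CPM. Among all 25 IAP names 18 rose and 3 fell. The fall of the simple repeat (GCCTG)n was not called without negative control replicate 1. Genomic copies of a name were not told apart.

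**Figure D3:**
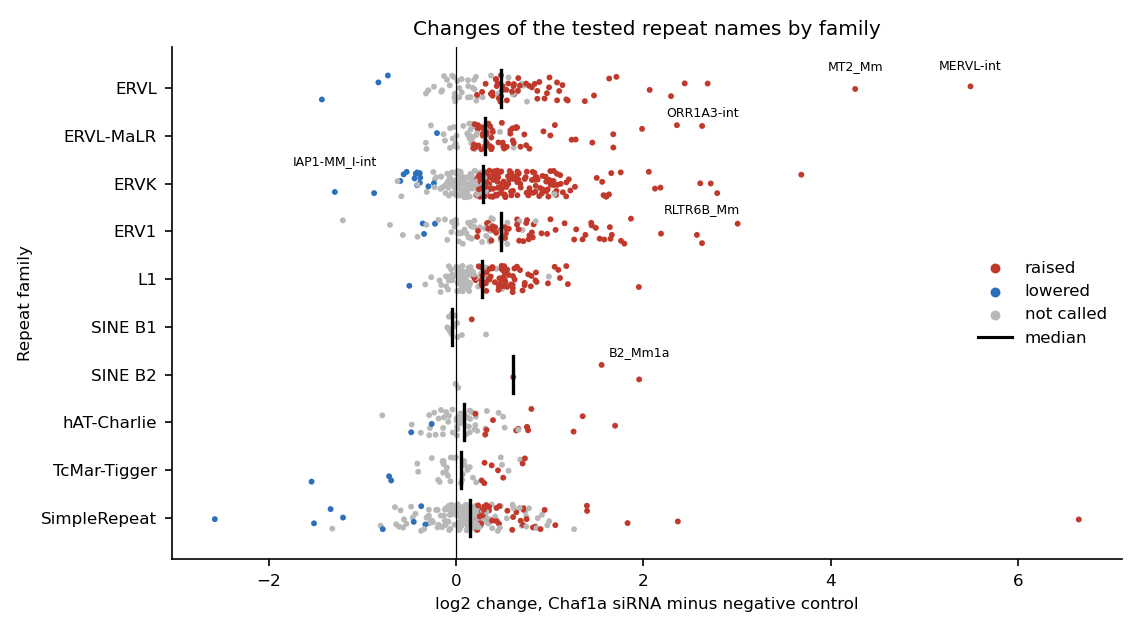
log2 change (Chaf1a siRNA minus negative control) of each tested repeat name in 10 families, coloured by call, with the family median as a black bar. MERVL-int and MT2_Mm lie at 5.49 and 4.26, beyond the other names of the ERVL family, and most B1 names lie near 0.

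Genes of cholesterol synthesis and its regulation fell together. Cells make cholesterol from acetyl-CoA through mevalonate and squalene, and SREBF2 raises these genes when sterol is short. Of 23 tested genes 22 fell and 1 was not called, with a median log2 change of -0.89. Hmgcs1, which makes HMG-CoA, was at 344 and 332 CPM in the negative control libraries and 195 and 192 CPM with Chaf1a siRNA (log2 change -0.81, SE 0.05, adjusted p = 1.4e-12). Both Chaf1a siRNA libraries lay below both control libraries. The late enzymes Cyp51 (113 and 109 against 43.5 and 46.7 CPM), Sc4mol (134 and 129 against 48.9 and 50.6 CPM) and Dhcr7 (64.05 and 68.5 against 25.4 and 26.8 CPM) fell further, and Srebf2 itself was at 255 and 277 against 166 and 158 CPM. Median changes against the negative control were -0.24 with si308 and -0.42 with si309. Against the Chaf1a siRNA group 19 of the 23 genes were higher with si308, where 9.91% of all genes were, and 17 with si309, where 3.76% were; for Sc4mol the difference was 1.01 with si308 and 0.80 with si309.

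Glycolysis, which breaks glucose down to pyruvate and lactate, showed the same direction. Of 20 tested genes 18 fell and Pdk1, which restrains entry of pyruvate into mitochondria, rose (94.5 and 94.99 against 117 and 115 CPM); the median was -0.55. Pfkm, the muscle form of phosphofructokinase, was at 118 and 119.8 CPM in the negative control libraries and 35.9 and 36.5 CPM with Chaf1a siRNA (log2 change -1.72, SE 0.08, adjusted p = 2.9e-14). Ldhb, a lactate dehydrogenase subunit, was at 846 and 919.5 CPM in the negative control libraries and 276 and 262 CPM with Chaf1a siRNA (log2 change -1.71, SE 0.07, adjusted p = 2e-15), and its partner Ldha at 2099 and 2042 against 1642 and 1537 CPM. The abundant pyruvate kinase gene Pkm went from 4144 and 4255 to 2587 and 2574 CPM. Pfkm and Ldhb fell furthest, and the next was Aldoc (log2 change -0.80). Gapdh and other members have processed pseudogenes that can take their reads.

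**Figure D4:**
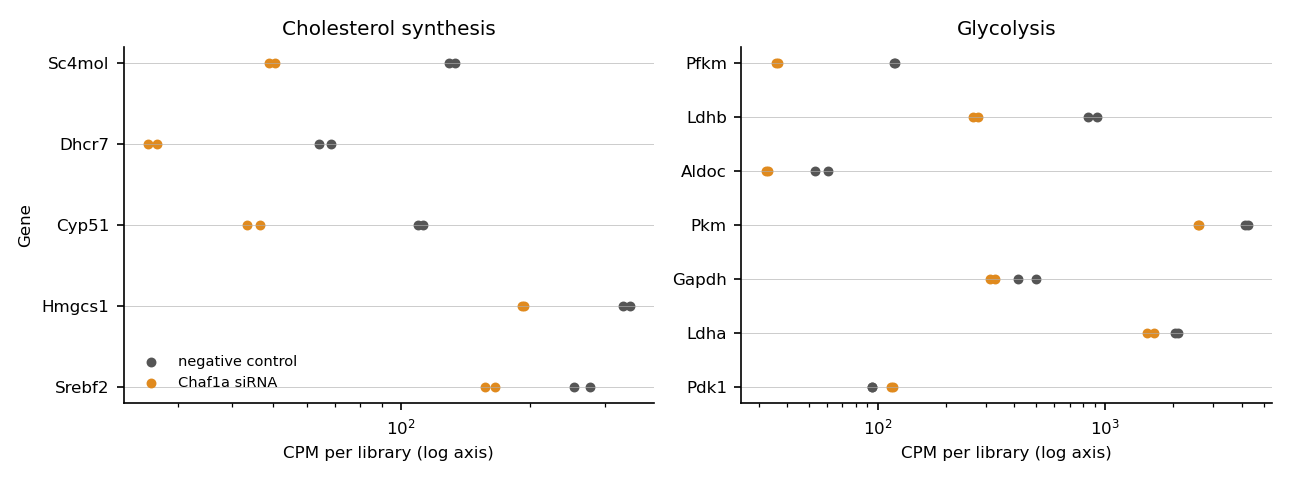
CPM on a log axis in each of the 2 negative control libraries (grey) and the 2 Chaf1a siRNA libraries (orange) for the genes of cholesterol synthesis (left) and of glycolysis (right) that the text names, ordered by log2 change. The orange points lie left of the grey ones in every row except that of Pdk1.

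The machinery of translation was lower. Of 82 ribosomal protein genes 72 fell and 10 were not called, with a median of -0.44. Rpl4 had the largest loss in CPM of any gene, with 5540 and 5525 CPM in the negative control libraries and 3073 and 2934 CPM with Chaf1a siRNA, and Rpl13a was at 2201 and 2333 against 1324 and 1244 CPM. Together the 82 genes took 4.28% and 4.53% of gene counts in the control libraries and 3.36% and 3.28% with Chaf1a siRNA. Of 59 translation initiation factor genes 38 fell (64.41%) and 6 rose, beside 60.1% lowered among all tested genes over 100 CPM. Eif4b was at 1317 and 1330 against 575 and 571 CPM and Eif3e at 644 and 583 against 297 and 287 CPM. Aminoacyl-tRNA synthetases, which charge tRNAs, fell in 18 of 20 cases, with Sars at 310.3 and 332 against 138 and 135 CPM. The elongation factor genes Eef1a1 (2875 and 2930 against 1773 and 1791 CPM) and Eef2 (4601 and 4947 against 3636 and 3651 CPM) fell too, as did the nucleolar chaperone gene Npm1 (6391 and 5950 against 3924 and 3870 CPM). Of 10 genes for the cytosolic chaperonin, which folds actin and tubulin, 9 fell, with Cct2 at 1285 and 1232 against 771 and 769 CPM. Many genes of these families have near-identical processed pseudogenes; of 813 tested processed pseudogenes 288 fell and 104 rose.

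Of 87 nuclear genes of the respiratory complexes 66 fell and 3 rose, with a median of -0.35; Atp5c1 of the ATP synthase was at 859 and 805 against 463 and 447 CPM. Of 26 tested genes of the mitochondrial genome 17 rose and 4 fell, with a median of 0.27; 18 of the 26 encode transfer RNAs, of which 10 rose and 4 fell. The ribosomal RNA gene mt-Rnr2 was at 225 and 185 against 340.5 and 371 CPM and mt-Nd1, a subunit of complex I, at 1862 and 1562 against 2227 and 2435 CPM. mt-Cytb was at 2898 and 2530 against 3071 and 3118 CPM, a rise that was not called without negative control replicate 1, and without Chaf1a siRNA replicate 0 the lowered mitochondrial genes were no longer called. Of 39 proteasome genes 29 fell and 3 rose, counts that became 16 and 7 with library totals and no factors. Of 31 splicing factor genes 19 fell and 4 rose. The lowered share of the splicing genes was 61.29%, near the 60.1% of all tested genes over 100 CPM. The number of raised splicing factor genes was 2 without negative control replicate 1 and 1 without Chaf1a siRNA replicate 0.

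Genes of DNA replication and repair mostly fell, 68.42% of Mcm and origin genes and 68.0% of repair genes. Among all tested genes over 100 CPM 60.1% fell, a share not far below these. Of 19 Mcm and origin genes, which license and unwind origins, 13 fell, with Mcm6 at 875 and 844 against 548 and 541 CPM, Cdt1 at 175 and 178 against 99.5 and 109 CPM and Gins1 at 104 and 96.8 against 52.8 and 50.8 CPM. Of 25 repair and damage signalling genes 17 fell and 4 rose. The checkpoint kinase gene Chek1 was at 181 and 174 CPM in the negative control libraries and 85.3 and 83.6 CPM with Chaf1a siRNA (log2 change -1.07, SE 0.05, adjusted p = 5.8e-14), and both subunits of Ku, the end-binding protein of double-strand breaks, fell, Xrcc5 at 354 and 325 against 205 and 189.9 CPM and Xrcc6 at 153 and 146 against 78.7 and 80.2 CPM. Brca1 fell (228 and 221 against 136 and 137 CPM) and Brca2 rose (125 and 121 against 169.5 and 171 CPM).

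Replication-dependent histone genes rose. Their messages normally end in a stem-loop without a poly(A) tail, and the libraries were poly(A)-selected, so the counts follow only the polyadenylated part. Of 64 such genes counted, 29 were tested and 23 of them rose, with a median of 1.83, or 1.76 with genes without control counts at their bound. Hist1h1c, a linker histone, was at 2.75 and 2.94 CPM in the negative control libraries and 9.77 and 10.7 CPM with Chaf1a siRNA (log2 change 1.83, SE 0.14, adjusted p = 2.7e-10), and the H4 gene Hist1h4i at 1.22 and 0.818 against 5.21 and 5.61 CPM. Median changes with the pools were 0.38 with si308 and 0.62 with si309, and 14 and 11 of the 29 were lower with them than in the Chaf1a siRNA group, where 12% and 7.06% of all genes were. Hist1h2bc, at 3.89 and 4.09 against 10.4 and 10.8 CPM, had log2 differences from that group of 0.11 with si308 and 0.31 with si309.

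Regulators of DNA methylation moved both ways, with 6 of 16 raised and 9 lowered. The de novo methyltransferase genes rose: Dnmt3a was at 90.3 and 84.96 against 163 and 167 CPM and Dnmt3b at 116 and 105 against 168 and 171 CPM, and their cofactor Dnmt3l at 109.6 and 104 against 549 and 541 CPM. The maintenance factors fell, with Dnmt1 at 724 and 752 against 606 and 621 CPM and Uhrf1 at 848 and 880.4 against 618 and 651 CPM, as did Tet1 (317 and 317 against 216 and 232 CPM). Dppa3, which shields DNA from methylation and is a marker of naive cells, was at 24.8 and 24.6 CPM in the negative control libraries and 8.42 and 6.73 CPM with Chaf1a siRNA (log2 change -1.69, SE 0.12, adjusted p = 4.5e-11). Of 27 Polycomb subunits 7 rose and 13 fell; Phf19 fell (7.50 and 7.91 against 1.98 and 2.32 CPM) and Jarid2 rose (278 and 266 against 418 and 428 CPM).

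RNA of most pluripotency factors was kept at reduced levels, while that of some rose. Of 16 genes of embryonic stem cell identity 10 fell (62.5%) and 4 rose, with a median of -0.27. These values lie near those of all tested genes over 100 CPM, of which 60.1% fell, with a median of -0.20. Pou5f1 was at 905 and 883 CPM in the negative control libraries and 627 and 636 CPM with Chaf1a siRNA, Sox2 at 249.9 and 239 against 156 and 149 CPM and Nanog at 803 and 749 against 529 and 494 CPM. Fgf4 (281 and 278 against 90.3 and 85.7 CPM; log2 change -1.67) and Dppa5a (2621 and 2580 against 1452 and 1403 CPM) fell further, and Lin28a (33.01 and 32.1 against 56.99 and 58.97 CPM), Tbx3, Klf4 and Sall4 rose. List medians against the negative control were -0.33 with si308 and -0.40 with si309.

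Germline genes rose in most cases. The piRNA pathway uses small RNAs and PIWI proteins to silence transposons in germ cells, and of 29 tested genes of this pathway and of meiosis 23 rose and 1 fell, with a median of 1.01. Tdrd9, a helicase of the pathway, was at 1.57 and 2.06 CPM in the negative control libraries and 20.3 and 21.8 CPM with Chaf1a siRNA (log2 change 3.51, SE 0.14, adjusted p = 6e-15). Piwil2 was at 5.02 and 4.39 against 26.1 and 23.5 CPM, and the meiotic chromosome axis genes Sycp3 at 36.5 and 33.1 against 119 and 99.3 CPM and Stag3 at 90.9 and 95.7 against 239.8 and 227 CPM. Medians against the negative control were 1.16 with si308 and 1.09 with si309. The log2 difference of Sycp3 from the Chaf1a siRNA group was 0.02 with si308 and -0.07 with si309, and that of Stag3 was -0.08 with si308 and 0.01 with si309. Of 28 Rhox homeobox genes, an X-linked cluster of reproductive tissues, 16 passed the filter and 15 rose (median 2.76, or 2.35 at the bounds). The number raised was 11 with only the 4 libraries of the comparison, filtered anew, and 13 with DESeq2. Rhox6 was at 0.549 and 0.455 against 39.1 and 37.4 CPM and Rhox9 at 1.14 and 0.879 against 24.3 and 23.02 CPM. Of 16 Mage genes 9 rose, and of 17 tested maternal and oocyte genes 9 rose and 3 fell. Sohlh2, an oocyte transcription factor gene, was at 64.2 and 60.6 against 136 and 125 CPM, while Kit, a receptor of germ cells, fell (336 and 353 against 172 and 166 CPM).

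Genes of several signalling pathways were higher. YAP and TAZ, the effectors of the Hippo pathway, act with TEAD factors, and of 21 tested targets 15 rose and 6 were not called (median 0.98). Ctgf was at 11.3 and 11.9 CPM in the negative control libraries and 55.6 and 56.4 CPM with Chaf1a siRNA (log2 change 2.27, SE 0.08, adjusted p = 9.8e-16), Cyr61 at 8.36 and 7.97 against 29.2 and 31.4 CPM and Nt5e at 3.61 and 3.09 against 41.2 and 47.8 CPM. Igfbp3 was at 2.75 and 2.24 against 23.7 and 26.3 CPM, and its log2 difference from the Chaf1a siRNA group was -2.49 with si308 and -1.72 with si309. PD0325901, present in all groups, inhibits MEK, the kinase above ERK. Of 18 FGF and ERK feedback and target genes 11 rose and 2 fell; the immediate early gene Fos was at 2.12 and 2.61 against 18.7 and 18.01 CPM, Egr1 at 0.196 and 0.364 against 5.73 and 5.64 CPM and the feedback inhibitor Spry4 at 3.18 and 2.24 against 18.1 and 20.1 CPM. Of the lowered members, Spred1 was not called when any 1 of the 4 libraries was left out, and Ier3 was not called without negative control replicate 0 or Chaf1a siRNA replicate 1.

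Of 14 BMP target genes 10 rose and 2 fell (median 1.38). Id3, an inhibitor of differentiation factors, was at 1.06 and 0.485 CPM in the negative control libraries and 20.99 and 23.4 CPM with Chaf1a siRNA (log2 change 4.90, SE 0.22, adjusted p = 3.5e-14), with Id1 at 3.77 and 3.06 against 9.97 and 10.7 CPM and the ligand Bmp4 at 3.42 and 3.03 against 14.6 and 13.3 CPM, whereas Id4 fell (5.73 and 5.48 against 1.80 and 2.02 CPM). CHIR99021 inhibits GSK3 and so stabilises beta-catenin in all groups. Of 17 Wnt target genes 10 rose and 4 fell: the inhibitor Dkk1 was at 0.157 and 0.121 against 9.28 and 9.72 CPM and Cdx1 at 4.59 and 4 against 21.4 and 22.5 CPM, and Ccnd1 (102 and 98.05 against 48.5 and 48.6 CPM) and Fzd7 (38.9 and 40.4 against 16.2 and 15.96 CPM) fell. Of 13 tested Wnt ligand genes 8 rose, with Wnt8a at 0.157 and 0.0606 against 5.90 and 7.14 CPM. Of 17 Notch pathway genes 8 rose and 6 fell, with a rise of Lfng (2.71 and 3.06 against 13.98 and 13.8 CPM) and a fall of Notch4 (16.2 and 16.9 against 4.98 and 6.20 CPM). The raised share of Notch genes was 47.06%, beside 47.58% of tested genes with a mean of 1 to 10 CPM over the 8 libraries. Of 15 retinoic acid pathway genes 9 rose and 1 fell; Stra6, a retinol transporter, was at 0.589 and 0.424 against 5.21 and 4.93 CPM, and the lowered gene was Meis2 (36.1 and 36.7 against 16.1 and 16.6 CPM).

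Extracellular matrix genes rose in most cases. Of 41 tested collagen genes 37 rose, with a median of 2.49 (2.46 at the bounds). Col4a1 of basement membranes was at 33.6 and 41.4 CPM in the negative control libraries and 217 and 236 CPM with Chaf1a siRNA (log2 change 2.59, SE 0.08, adjusted p = 3.6e-17), Col7a1 at 4.16 and 5.06 against 49.2 and 51.2 CPM, and Col1a2, from almost none, at 0.196 and 0.0606 against 15.2 and 17 CPM. Of 11 laminin genes 9 rose and 2 fell: Lama5, a chain of basement membrane laminins, was at 285 and 319 against 607 and 589.9 CPM. Without negative control replicate 1 or either Chaf1a siRNA library 1 laminin gene fell. Of 26 integrin genes, the receptors of this matrix, 16 rose and 4 fell, or 2 without Chaf1a siRNA replicate 1. Serpinh1, the collagen chaperone, was at 65.4 and 66.8 against 167 and 166 CPM, and the protease inhibitor gene Serpine2 at 19.04 and 19.2 against 179 and 177 CPM. Collagen medians were 2.20 with si308 and 2.34 with si309.

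Markers of other cell types were read beside these genes. Fibroblast markers summed to 16.3 and 19.2 CPM in the negative control and 127 and 133 CPM with Chaf1a siRNA; 9 of 12 were tested and 8 rose, Pdgfrb was not called, and Fap had no count in the 4 libraries. The list includes the collagen genes Col1a1, Col1a2 and Col3a1. Dcn and Lum, which define many fibroblasts, reached at most 0.149 and 0.486 CPM in any of these libraries. Primitive endoderm markers summed to 452 and 502 CPM in the negative control and 736 and 754 CPM with Chaf1a siRNA, and of 14 tested 12 rose and 1 fell; Dab2 was at 1.61 and 0.879 against 18.2 and 16.97 CPM and Amn at 0.589 and 0.273 against 12.1 and 12.8 CPM. Trophoblast markers summed to 83.01 and 82.3 CPM in the negative control and 88.3 and 87.8 CPM with Chaf1a siRNA, with 7 of 11 tested raised and 2 lowered, and Cdx2 was too low to test. The part of other cell types in the rise of collagen genes was not tested.

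Epithelial genes rose as well. Of 23 junction genes 18 rose and 4 fell, with Epcam at 52.5 and 46.8 against 139 and 132 CPM and the transcription factor gene Grhl2 at 3.65 and 3.58 against 16.9 and 16.3 CPM. Of 48 keratin genes 25 passed the filter on low counts, 7 of them without counts in a group, and 21 rose. The filter partly sets this share. Krt8 was at 2.47 and 3.15 against 14.3 and 14.3 CPM and Krt19 at 4.95 and 7.06 against 21.1 and 17.97 CPM. Of 15 claudin genes 10 rose and of 16 cadherin genes 12 rose, and Cdh2 was at 3.34 and 3 against 10.7 and 9.98 CPM where Cdh3 fell (40.1 and 38.3 against 26.9 and 27.1 CPM). Of 12 genes of the epithelial-mesenchymal transition 7 rose and 3 fell: Snai1 was at 0.510 and 0.909 against 7.70 and 7.997 CPM and Mmp2 at 2.94 and 4.51 against 47.7 and 38.8 CPM, whereas Tgfbi fell (17.7 and 20.9 against 4.67 and 4.82 CPM). Of 25 actin cytoskeleton genes 16 rose and 7 fell, with Acta2 at 0.0785 and 0.0909 against 4.53 and 4.78 CPM and Zyx at 2.75 and 2.94 against 14.9 and 16.3 CPM. Neural genes (8 of 17 raised, 4 lowered; Nefm at 25.4 and 23.1 against 177 and 189 CPM) and blood and endothelial genes (9 of 16 raised, 3 lowered; Tek at 10.1 and 9.27 against 40.95 and 38.04 CPM) were also tested, and Pecam1 fell (222 and 225 against 158 and 161 CPM). Raised shares were 47.06% of neural and 56.25% of blood and endothelial genes, beside 36.7% of all tested genes. Among tested genes with a mean of 1 to 10 CPM over the 8 libraries 47.58% rose, a share near that of the neural genes.

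Several genes of antigen presentation rose. Of 28 tested genes of the major histocompatibility complex 16 rose and 3 fell; the number lowered was 1 without negative control replicate 1 or either Chaf1a siRNA library. H2-D1, a class I heavy chain, was at 12.8 and 11.3 CPM in the negative control libraries and 123 and 118 CPM with Chaf1a siRNA (log2 change 3.33, SE 0.07, adjusted p = 1.2e-19), and H2-K1 at 16.1 and 16.4 against 95.7 and 93.7 CPM. Nlrc5, the transactivator of class I genes, was at 0.118 and 0.121 against 31.4 and 30.7 CPM, and the immunoproteasome subunit Psmb9 at 0.235 and 0.515 against 4.12 and 3.18 CPM; Psmb9, Tap1, Psmb8 and Tap2 formed 1 of the runs. The log2 difference of H2-D1 from the Chaf1a siRNA group was -0.52 with si308 and -0.23 with si309, and that of Nlrc5 was -0.49 with si308 and -0.21 with si309. Class I genes resemble each other closely, and their counts may be shared. Of 14 tested chemokine genes 11 rose and 2 fell, the number lowered being at most 1 without negative control replicate 1 or either Chaf1a siRNA library, and the raised ones stayed below 5 CPM; Ccl27a was the most abundant of these, at 2.12 and 1.97 against 4.30 and 4.04 CPM. Of 10 interleukin genes 7 rose and 2 fell, with Il34 at 6.40 and 6.33 against 34.4 and 33.7 CPM.

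Stress genes moved both ways. Of 15 heat shock genes 7 rose and 8 fell: the inducible Hspa1a was at 0.393 and 0.333 against 8.08 and 11.3 CPM, and the abundant Hsp90aa1 at 1731 and 1609 against 1097 and 1074 CPM and Hsp90ab1 at 6859 and 6782 against 5125 and 5077 CPM. Of 18 endoplasmic reticulum chaperones 10 rose and 4 fell (2 without replicate 0 of either group), with Dnajb9 at 13.9 and 13.5 against 34.8 and 36.6 CPM and Pdia3 at 862 and 799.9 against 1187 and 1174 CPM. Of 23 apoptosis regulators 10 rose (43.48%) and 5 fell (21.74%), beside 36.7% and 30.8% of all tested genes. Pmaip1, which encodes the p53 target NOXA, was at 13.3 and 15.4 against 61.5 and 58.7 CPM, and another p53 target, Ccng1, at 455 and 418 against 787 and 781 CPM. NRF2 targets (9 of 18 raised, 5 lowered) included Gclc, which rose (82.03 and 84.9 against 145 and 142 CPM), and Gsta4, which fell (799.6 and 739.7 against 424 and 409 CPM). Lysosome genes divided evenly, with 10 of 24 raised and 10 lowered; Gaa, which breaks down glycogen, rose (70.8 and 83.6 against 160.2 and 161 CPM). The medians of the heat shock and lysosome lists changed sign with library totals and no factors.

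**Figure D5:**
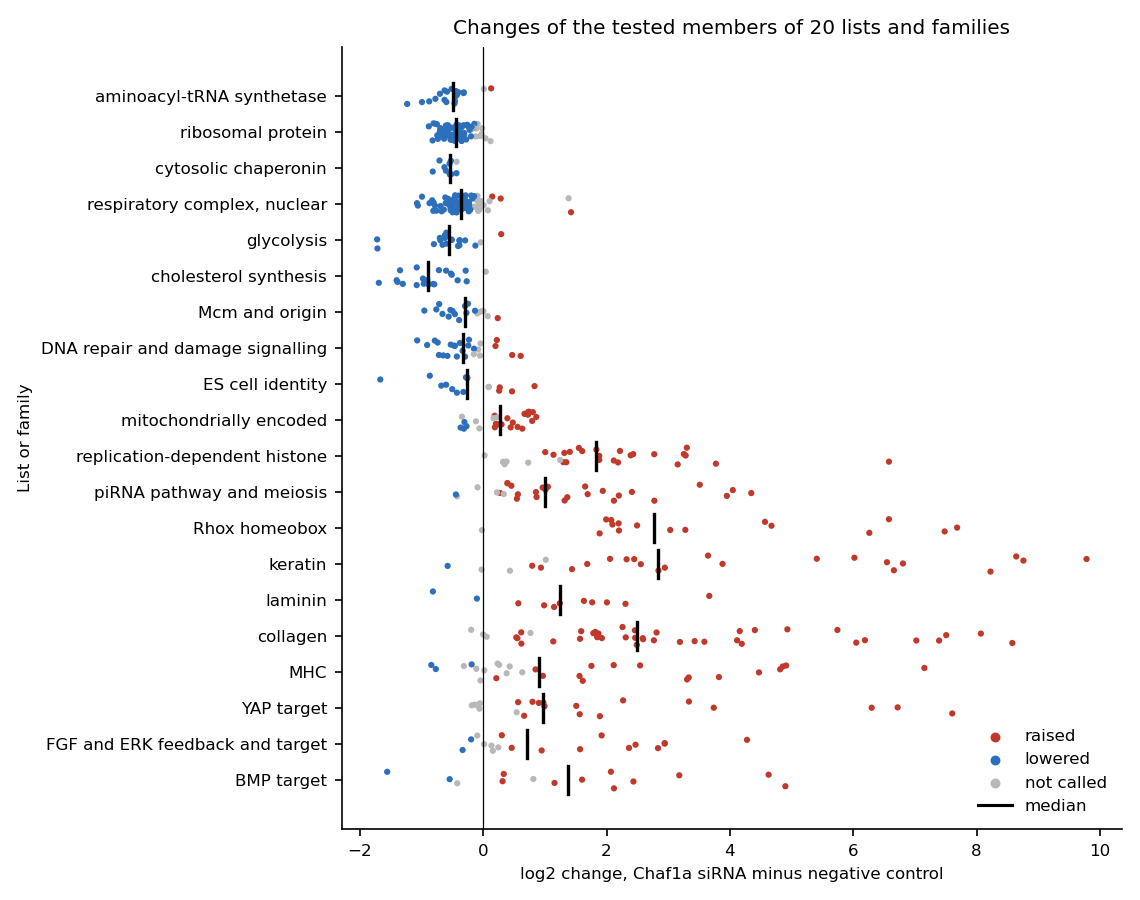
log2 change (Chaf1a siRNA minus negative control) of each tested member of 20 lists and families, coloured by call, with the median as a black bar. Members of the metabolic and translation lists lie mostly between -2 and 0, and collagen, keratin and Rhox genes extend to the right of 2.

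Transcription factor families differed in size and direction of change. Of 349 tested genes named Zfp 143 fell and 84 rose, with a median of -0.16 that changed sign with library totals. Zfp352 rose (0.0393 and 0 against 33.4 and 33.2 CPM) and Zfp60 fell (53.2 and 52.2 against 21.9 and 21.1 CPM). Sox genes (9 of 16 raised, 6 lowered), Fox genes (16 of 29, 4), T-box genes (4 of 11, 2) and clustered Hox genes (6 of 14, 1) moved both ways. The raised share of T-box genes was 36.36%, beside 36.7% of all tested genes. That of Hox genes was 42.86%, beside 43.67% of tested genes with a mean of 0.3 to 1 CPM. Of 38 Hox genes 14 passed the filter. The lowered Hox gene, Hoxc4, was not called when any 1 library was left out, and 1 T-box gene fell without Chaf1a siRNA replicate 1. Of 274 olfactory receptor genes 20 were tested and 10 rose. Of the tested solute carrier genes 158 rose (51.1%) and 68 fell (22.01%), with the iodide transporter gene Slc5a5 at 0.667 and 0.545 against 28.2 and 28.6 CPM.

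Among genes that averaged 10 CPM or more in the control, with libraries that did not overlap, the largest fractional falls reached beyond that of the target. Arhgef38 was at 19.5 and 18.1 against 3.32 and 3.25 CPM, and the Ras activator gene Rasgrp1 at 15.6 and 14.3 against 2.46 and 3.18 CPM. Lefty1, an antagonist of Nodal, was at 76.02 and 83.6 CPM in the negative control libraries and 18.9 and 18.5 CPM with Chaf1a siRNA (log2 change -2.10, SE 0.08, adjusted p = 1.1e-15). Pycr1, which makes proline, was at 30.1 and 37.9 against 7.50 and 6.46 CPM, and the Ets factor gene Spic at 28.02 and 25.4 against 5.96 and 6.20 CPM. Means with the pools were, for Lefty1, 17.8 CPM with si308 and 15.6 CPM with si309 and, for Arhgef38, 3.63 CPM with si308 and 3.35 CPM with si309. Among the largest gains in CPM, the imprinted gene Peg10 was at 104 and 98.6 CPM in the negative control libraries and 399.8 and 428 CPM with Chaf1a siRNA and the imprinted noncoding RNA gene Rian at 821 and 815 against 1255 and 1249 CPM. Peg10 stood at 179 CPM with si308 and 284 CPM with si309, below the Chaf1a siRNA libraries and above the control.

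By annotated type, 6009 of 15299 protein-coding genes rose and 4910 fell. Of 150 tested small nucleolar RNA genes 48 fell (32.0%) and 3 rose (2.0%), where 30.8% of all tested genes fell and 36.7% rose. The libraries were poly(A)-selected, and which transcripts these counts follow was not tested. Of 101 unprocessed pseudogenes 59 rose (58.42%). Protein-coding genes with a single exon rose in 48.2% and fell in 13.4% of 365 cases, against 40.1% and 34.3% of 6522 genes with more than 10 exons. Over genes of every type, 22.01% of the 1536 with a single exon rose and 27.3% fell. X-linked genes rose at least 2-fold in 27.97% of 708 cases, the highest share of any chromosome with 50 or more tested genes, where 21.5% of all genes did; among genes with a mean of at least 1 CPM the X share was 18.98%, that of chromosome 12 was 17.47% and that of all genes was 14.8%.

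Over all tested genes, Chaf1a siRNA with si308 raised 33.1% and lowered 28.5% against the negative control, and with si309 35.0% and 30.3%. Set against Chaf1a siRNA directly, 9.91% were higher and 12% lower with si308, and 3.76% higher and 7.06% lower with si309. These comparisons share libraries with the main one, so the values stand side by side and no overlap is given. Chaf1a itself averaged 34.6 CPM with si308 and 31.5 CPM with si309, beside 29.6 CPM in the Chaf1a siRNA group. Its log2 difference from that group was 0.23 with si308 and 0.09 with si309 (edgeR's quasi-likelihood test, adjusted p = 0.025 and 0.51). mDux averaged 0.062 CPM with si308 and 0.193 CPM with si309, beside 7.27 CPM in the Chaf1a siRNA group.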

How the data were processed

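The authors deposited whole-number read counts per gene and per repeat name for 8 libraries, 2 in each of 4 groups. Novoalign 2.8, mm10 and DESeq2 are named in the submitters' processing notes; the read counter and how it treated reads with several matches are not given in the sources used here. Each deposited table also has 8 columns of transformed values, which were not used. Columns were tied to groups by name; their numbers 0 and 1 name a library and were not tied to the labels' replicates. Here counts were filtered with filterByExpr, scaled with TMM factors and tested with edgeR 4.0.16 (R 4.3.3), by the quasi-likelihood test with all 8 libraries in 1 fit (4 residual degrees of freedom) and Benjamini-Hochberg adjustment, over genes and over repeat names separately; a call is an adjusted p under 0.05. Repeats used the gene table's library totals and TMM factors. CPM are the deposited counts divided by each library's total times its TMM factor. DESeq2 1.42.0, other scalings and filters, the 4 libraries alone, a replicate block and leaving out each library were alternatives. The scripts were checked on simulated counts. A fold against a group without counts uses a floor of 3 counts per library; intervals at 95% are exact, and both cover counting error only.

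Named genes were Chaf1a, Chaf1b, Rbbp4 and mDux, the 12 raised and 12 lowered with the largest fold at 10 CPM or more, the 10 in each direction with the largest difference in CPM, and up to 4 of a list with the smallest adjusted p; repeats followed a like rule. Some genes that the rule selects are not reported here. Named outside it, after their values were seen, were Dhcr7, Srebf2, Pdk1, Ldha, Aldoc, Brca2, Dnmt3b, Dnmt1, Tet1, Nanog, Lin28a, Tbx3, Klf4, Sall4, Cyr61, Id4, Fzd7, Spred1, Ier3, Ccl27a, Hoxc4, the genes given for runs, and Dcn, Lum and Fap. The comparison, lists and families were chosen with earlier results of these data known.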

Additional observations from a re-analysis of the deposited data

How the results depend on the processing

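Of 3844 values of 352 named genes and repeats under the alternatives, 3822 kept their direction and side of the threshold, 21 kept their direction and lost the call, and 1 reversed. With library totals and no factors Rbbp4 was at a log2 change of 0.12, and the medians of the lysosome, heat shock and Zfp lists were 0.15, 0.063 and 0.0082; their signs turned as the median of all genes moved from 0.05 to 0.22. The lost calls were 16 of Spred1, Ier3 and Hoxc4 with library totals, DESeq2, a replicate block or a library left out, besides mt-Cytb, Obox1, Obox3, Obox6 and (GCCTG)n.

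Counts of genes stayed within 1.5 times of the reported ones in every alternative run. Leaving out 1 library gave 5857 to 6082 raised and 4878 to 5213 lowered genes, and 350 to 421 raised repeat names. Lowered repeat names, 39 in all, numbered 24 to 33 when 1 library was left out, with 24 without Chaf1a siRNA replicate 0, and 23 with library totals. With the repeat table's own scaling 286 repeat names rose and 234 fell. With the replicate number as a block 6565 genes rose and 5533 fell, and 461 and 32 repeat names. Deviations of same-numbered libraries of the negative control and Chaf1a siRNA groups correlated at 0.027, over genes of 10 CPM or more. The pool groups were not examined in this way, and 1 correlation cannot settle whether libraries were prepared in pairs. DESeq2 gave 5998 raised and 5134 lowered genes. List counts moved most with library totals: lowered genes numbered 6 for lysosome, 2 for apoptosis, actin, epithelial junctions and integrins, 1 for endoplasmic reticulum chaperones and 43 for solute carriers, and raised genes 11 for Polycomb, 12 for initiation factors, 9 for nuclear respiratory genes and 9 for splicing. With 2 libraries a group, the spread rests largely on what genes share, with 17.1 prior beside 4 residual degrees of freedom. For repeats it was likewise shared between names, so their very small adjusted p say little of the spread of a single name.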
